A study of Aconitum carmichaelii with 4 samples.

Results

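Transcript levels in the reproductive tissues of Aconitum carmichaelii, flower and bud, were compared with those in the vegetative tissues, leaf and root. The comparison covered 29670 of the 128183 assembled unigenes, namely those longer than 500 bases to which at least 40 fragments were assigned over all 4 libraries. Each tissue was represented by 1 library from 3-year-old plants of the accession 0871-09TS, so the reproductive pair is 1 flower and 1 bud library, and the vegetative pair is 1 leaf and 1 root library. No plant was treated and all tissues were harvested from plants grown under natural conditions in Tsukuba, Japan. How many plants contributed to each library was not stated in the paper or the labels. Flower and bud are different tissues and not replicates, as are leaf and root, and for this reason no p-value was computed. An exact two-sided test of 2 libraries against 2 could not give a p below 0.333.

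Flowers and buds hold growing and dividing cells, pollen-forming and ovule-forming tissue, petals and nectaries, and draw sugar from the rest of the plant. Leaves supply this sugar by photosynthesis in chloroplasts, while roots take up minerals and nitrate and, in aconites, store toxic diterpene alkaloids. These alkaloids derive from geranylgeranyl diphosphate, an isoprenoid built from the units that the mevalonate (MVA) pathway of the cytosol and the methylerythritol phosphate (MEP) pathway of the plastid provide.

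A unigene was in consistent order when the lower value of one pair exceeded the higher value of the other pair. Values are counts scaled to library size (CPM) with factors from the TMM method, which limits the weight of a few very abundant transcripts, and CPM always means these scaled values unless plain CPM is named. The gap is the lower value of the higher pair divided by the higher value of the lower pair. A unigene was called higher in a pair when its order was consistent, its gap was at least 2 and the exact 95% interval of the gap lay above 1. These intervals cover counting error only and say nothing of variation between plants. A library with 0 fragments was set to 3 fragments, and where this value sets the gap, the gap is written as at least so many fold. Such a bound leaves out counting error in the other libraries. The interval was computed from the observed counts and can start lower, as for TR47002|c0_g1_i1, with a bound of 12.5 and an interval from 3.94.

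The fragment totals were 7057551 for flower and 6614173 for bud, against 5400853 for leaf and 4811266 for root. The members of the comparison received between 88.1% and 92.8% of the fragments of each library. The single unigene TR43559|c0_g1_i1, for which no annotation was used here, took 15.6% of the leaf fragments and was not in consistent order. TMM scaling raised the leaf and root values relative to flower and bud by 0.44 to 0.74 on the log2 scale, and the balance between the directions rested on this step.

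Of the 29670 unigenes, 7004 (23.6%) were consistently higher in flower and bud, 5248 (17.7%) were consistently higher in leaf and root, and 17418 (58.7%) showed neither order. Most of the gaps were small, with a median of 1.45 for the unigenes higher in flower and bud and 1.32 for those higher in leaf and root. A total of 1550 unigenes (5.22%), from 1353 Trinity genes, were called higher in flower and bud, and 880 (2.97%), from 728 Trinity genes, were called higher in leaf and root. Reproductive calls therefore made up 63.8% of all calls. With plain CPM, without TMM factors, 3345 unigenes were called higher in flower and bud and 426 in leaf and root, so that reproductive calls made up 88.7%. All 1550 reproductive calls and 426 of the 880 vegetative calls were kept under plain CPM. The median difference of all 29670 unigenes, flower and bud minus leaf and root, was 0.10 on the log2 scale with TMM and 0.63 with plain CPM. A call needs all 4 libraries, and with 1 of them left out the calls numbered 3485 and 1791 without flower, 3095 and 1330 without bud, 5084 and 4184 without leaf, and 3608 and 3916 without root, each time with the calls in flower and bud given first. Close to the fragment minimum, 79 of the 287 unigenes with exactly 40 fragments were consistently higher in flower and bud and 42 in leaf and root. Just below it, among the 280 unigenes with 39 fragments, these numbers were 81 and 31.

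**Figure D1:**
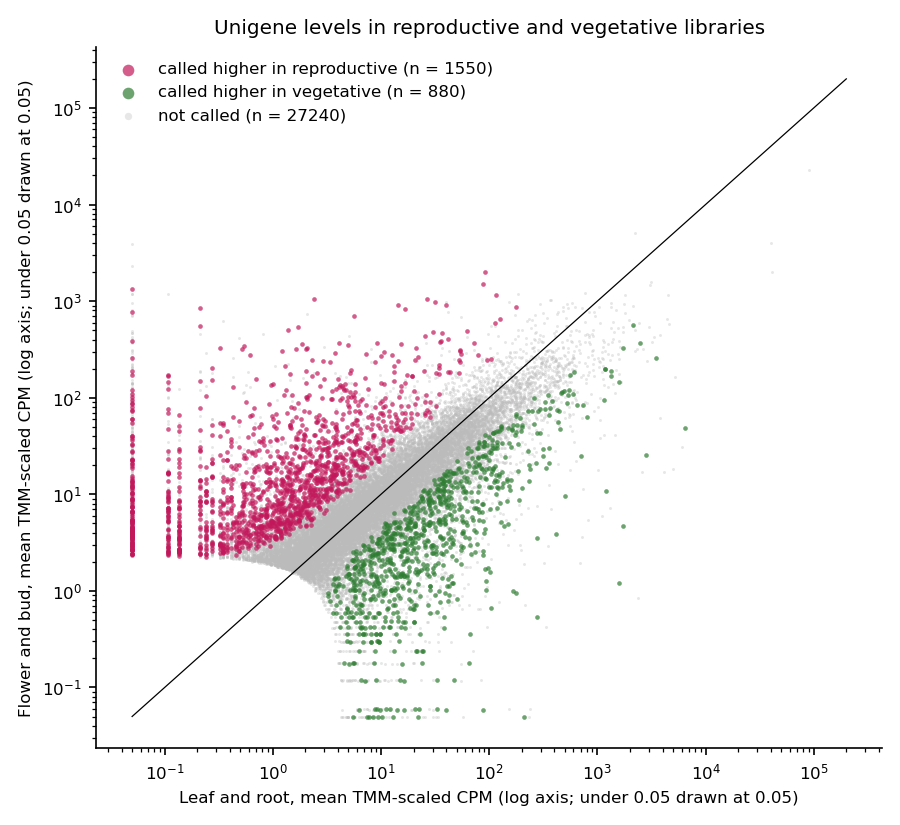
Mean TMM-scaled CPM of flower and bud (vertical, log axis) against the mean of leaf and root (horizontal, log axis) for 29670 unigenes, with the line of equal values. The 1550 unigenes called higher in flower and bud lie above the line and the 880 called higher in leaf and root below it, and unigenes with a mean under 0.05 CPM, many of them in leaf and root, are drawn at 0.05.

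The called unigenes carried 8.94% of the flower fragments and 7.83% of the bud fragments in the reproductive direction, against 0.515% of the leaf and 0.434% of the root fragments. The unigenes called in the vegetative direction carried 1.40% of the flower and 1.31% of the bud fragments, against 4.79% of the leaf and 7.96% of the root fragments. These shares describe the sets that the rule picked. The median gap of the called unigenes was 3.56 for those higher in flower and bud and 3.09 for those higher in leaf and root. A gap of at least 10 was reached by 190 unigenes higher in flower and bud and by 88 higher in leaf and root.

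Calls with a lower pair at 0 fragments were more numerous in the reproductive direction. Both leaf and root were at 0 fragments for 142 of the 1550 unigenes called higher in flower and bud. Both flower and bud were at 0 for 9 of the 880 unigenes called higher in leaf and root. Root was at 0 for 336 and leaf for 308 of the reproductive calls, while flower was at 0 for 21 and bud for 33 of the vegetative calls. Flower and bud also had larger fragment totals than leaf and root, and the part of depth in these counts was not tested.

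Within a pair the tissues still differed. The median fold between the members of the higher pair was 1.64 for the reproductive calls and 1.68 for the vegetative calls. Over all unigenes the median fold was 1.43 between flower and bud and 2.01 between leaf and root, among those with fragments in both. The reproductive calls were divided between 701 unigenes that were higher in flower than in bud and 849 that were higher in bud, and the vegetative calls between 369 that were higher in leaf than in root and 511 that were higher in root. For 233 of the 1550 reproductive calls and 172 of the 880 vegetative calls the fold within the higher pair was larger than the gap between the pairs. Calls in both directions were found in 1 Trinity gene, TR46115|c0_g2. Its isoform TR46115|c0_g2_i8 had 85 fragments in flower and 151 in bud, against 21 in leaf and 4 in root, while TR46115|c0_g2_i6 had 39 in flower and 52 in bud, against 531 in leaf and 102 in root.

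**Figure D2:**
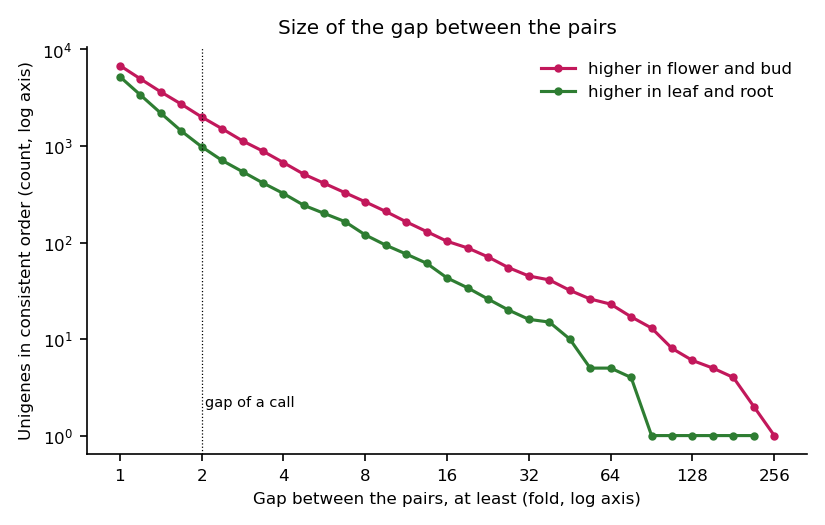
Number of unigenes in consistent order (vertical, log axis) whose gap between the pairs is at least the value on the horizontal log axis, for unigenes higher in flower and bud and for those higher in leaf and root. At a gap of at least 2, marked by the dotted line, 1999 unigenes were higher in flower and bud and 983 in leaf and root before the interval was required, and the reproductive curve stays above the vegetative one up to the largest gaps.

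Gene descriptions came from the study's annotation, which rests on matches to other species and was used here from shortened copies, so that 842 of the 29670 unigenes had a description. Of these, 39 were among the reproductive calls and 26 among the vegetative calls, shares close to those of all unigenes (5.22% and 2.97%). The pathway unigenes have their names from a separate table of the study. The unigenes with the largest gaps had neither. TR27613|c0_g1_i1 had 826 CPM in flower and 721 CPM in bud and no fragment in leaf or root, which made it at least 887-fold higher in the reproductive tissues. TR47749|c1_g6_i1 had 191 CPM in flower and 470 CPM in bud, against 0.642 CPM (3 fragments) in leaf and 0 in root. In the other direction, TR40714|c0_g1_i3 had 1.93 CPM in flower and 7.42 CPM in bud, against 1792 CPM in leaf and 1694 CPM in root, a gap of 228 (95% interval 178 to 297). TR40707|c1_g1_i1 had 0 in flower and 0.118 CPM (1 fragment) in bud, against 31.7 CPM in leaf and 47.7 CPM in root. Leaf and root held nearly equal amounts of TR40714|c0_g1_i3.

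**Figure D3:**
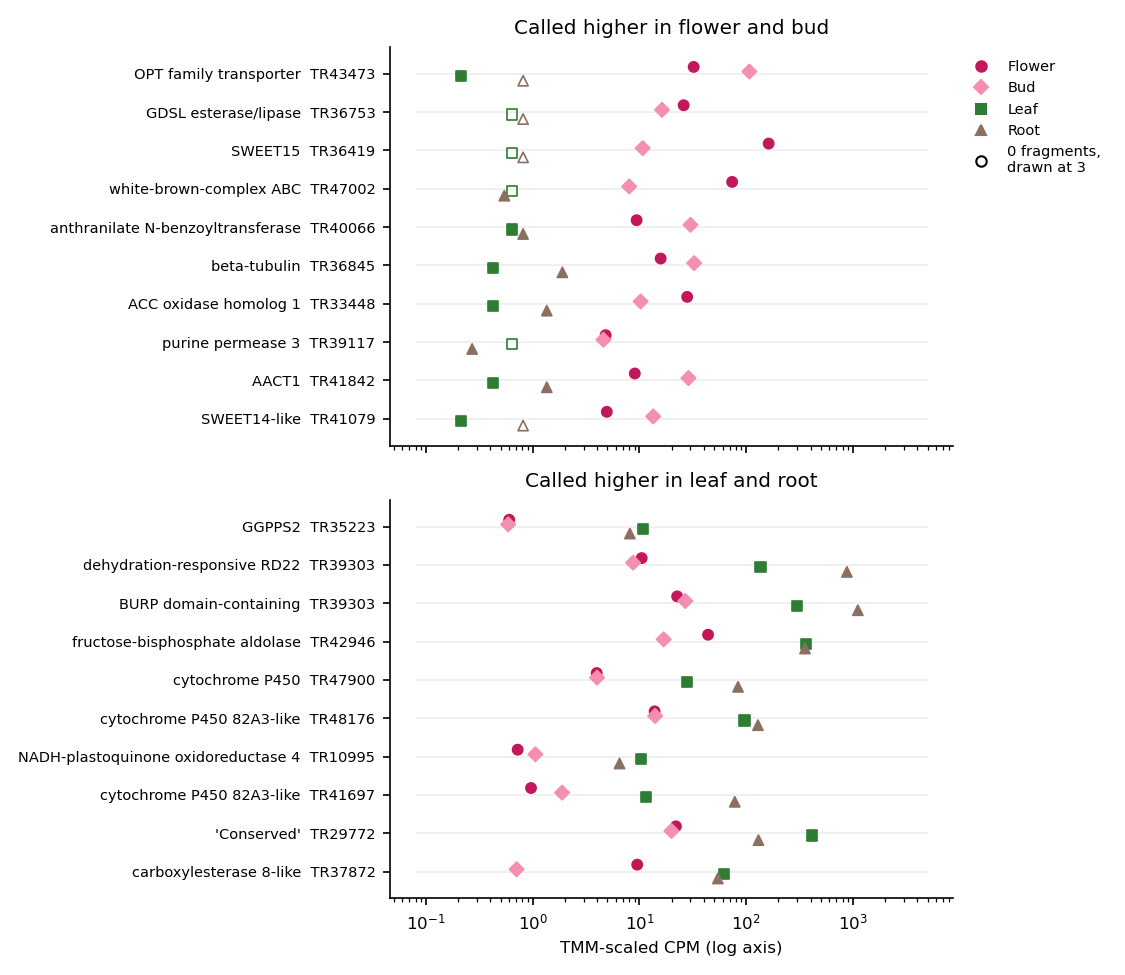
TMM-scaled CPM (log axis) of the 10 unigenes with a description or pathway name and the largest gap in each direction, 1 per Trinity gene, with flower, bud, leaf and root as separate symbols and open symbols for libraries with 0 fragments, drawn at the level of 3 fragments. In the upper panel both reproductive symbols lie to the right of both vegetative ones, and in the lower panel to the left, with SWEET15 at 162 CPM in flower and 10.7 CPM in bud as an example of a wide spread within a pair.

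The tissue labels were checked against the few marker unigenes with a description. FRUITFULL-like MADS-box unigenes, whose relatives in Arabidopsis act in the floral transition and in fruits, gave 0 calls among 7 unigenes in either direction, beside 5.22% and 2.97% of all unigenes, a count that a list of this size does not set apart from the rest. Their summed level was 68.1 CPM in flower and 56.3 CPM in bud, against 347 CPM in leaf and 71.8 CPM in root. The isoforms of TR39420 were highest in leaf, as in TR39420|c0_g2_i3 with 17.5 CPM in flower and 16.7 CPM in bud, against 107 CPM in leaf and 1.90 CPM in root. The isoforms of TR40910 were highest in root, with TR40910|c0_g1_i5 at 1.33 CPM in flower and 0.353 CPM in bud, against 2.36 CPM in leaf and 24.9 CPM in root. Rubisco subunit-binding protein, the plastid chaperonin that folds the carbon-fixing enzyme, summed to 387 CPM in flower and 413 CPM in bud, against 972 CPM in leaf and 287 CPM in root. Of its 5 unigenes, 4 were consistently higher in leaf and root (beside 17.7% of all unigenes), all isoforms of TR37670|c3_g1. None of these was called, since root stayed close to the reproductive libraries. The other unigene, TR38483|c0_g1_i1, showed neither order, with 304 CPM in flower and 318 CPM in bud, against 401 CPM in leaf and 159 CPM in root. It held most of the summed flower and bud level. The 1 plastid unigene that was called, TR10995|c0_g1_i1 for subunit 4 of NADH-plastoquinone oxidoreductase, had 0.723 CPM in flower and 1.06 CPM in bud, against 10.3 CPM in leaf and 6.51 CPM in root, a gap of 6.14 (2.75 to 15.0).

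Unigenes of cell division and the microtubule cytoskeleton were called in the reproductive direction. Of 36 unigenes for histones H3 and H4, chromosome kinesin, retinoblastoma-related proteins and tubulins, 8 were called higher in flower and bud (beside 5.22% of all unigenes) and 0 in leaf and root (beside 2.97%), and 17 and 0 were in consistent order (beside 23.6% and 17.7%). The 8 calls include 3 isoforms of TR34723|c0_g5 and both TR41353|c3_g2_i1 and TR41353|c3_g2_i2, so they are not 8 independent genes. The summed level of the 10 histone unigenes was nearly even, with 846 CPM in flower and 1039 CPM in bud, against 761 CPM in leaf and 798 CPM in root. Histone H4, which with H3 packs newly made DNA, was represented by TR39336|c2_g1_i1, with 77.9 CPM in flower and 206 CPM in bud, against 0.214 CPM (1 fragment) in leaf and 19.8 CPM in root. Its gap was 3.94 (3.09 to 5.09). Leaf was almost silent for this transcript and root intermediate. Of 8 histone H3 unigenes, 3 were called, all isoforms of TR34723|c0_g5, with levels of 6.51 to 11.7 CPM in flower and 6.60 to 14.4 CPM in bud, against 2.14 to 3.43 CPM in leaf and 1.90 to 5.42 CPM in root. The more abundant H3 unigenes of TR37253 and TR35707 were not called.

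Tubulin, the building block of microtubules, contributed 4 of 19 unigenes to the reproductive calls (beside 5.22% of all unigenes). The alpha tubulin TR42031|c3_g2_i1 had 432 CPM in flower and 558 CPM in bud, against 8.56 CPM in leaf and 116 CPM in root, a gap of 3.71 (3.36 to 4.11). The beta tubulin TR41353|c3_g2_i1 had 281 CPM in flower and 342 CPM in bud, against 0.856 CPM in leaf and 107 CPM in root. The short beta tubulin TR36845|c1_g1_i1 had 15.8 CPM in flower and 32.5 CPM in bud, against 0.428 CPM in leaf and 1.90 CPM in root, a gap of 8.32 (3.93 to 21.1). In each of these 3 unigenes leaf was the lowest library. The family as a whole was not a reproductive one, since its summed level was 2820 CPM in flower and 2473 CPM in bud, against 764 CPM in leaf and 2871 CPM in root. With plain CPM 7 of the 19 tubulins were called (beside 11.3% of all unigenes). Retinoblastoma-related proteins, which restrain entry into the cell cycle, gave 0 calls among 4 unigenes, with 76.1 CPM in flower and 76.7 CPM in bud in sum, against 29.1 CPM in leaf and 92.4 CPM in root. Chromosome kinesin KIF4 likewise gave 0 calls among 3 unigenes.

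DNA cytosine methyltransferases place methyl groups on cytosine. Of their 5 unigenes 4 were consistently higher in flower and bud (beside 23.6% of all unigenes) and 2 were called (beside 5.22%). None was higher in leaf and root. TR46739|c0_g1_i1 had 11.2 CPM in flower and 34.8 CPM in bud, against 0 in leaf and 2.98 CPM in root, a gap of 3.76 (2.01 to 7.79). Chromomethylase 2 (TR46448|c0_g1_i1), which acts on cytosines outside CG sites in other plants, had 12.3 CPM in flower and 24.6 CPM in bud, against 2.78 CPM in leaf and 5.96 CPM in root. Bud was the highest library for both. The gap of chromomethylase 2 was 2.06, and with DESeq2 size factors it was 1.91, below the limit of a call. Among the proteins of small RNA pathways, 0 of 6 argonautes and 0 of 5 dicers were called. The dicer-like 3 isoform TR35113|c0_g1_i2 had 2.53 CPM in flower and 2.59 CPM in bud, against 0.428 CPM in leaf and 0.813 CPM in root, and its gap of 3.11 had an interval of 0.930 to 16.3. Of 34 unigenes described as transposable elements, 2 were called higher in flower and bud, which is close to the share of all unigenes (5.22%), and 0 in leaf and root. Their median difference was 0.51 on the log2 scale beside 0.10 for all unigenes. In flower and bud 7 of the 34 were called with plain CPM (beside 11.3% of all) and 1 with DESeq2 size factors.

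Several cell wall enzymes of the reproductive direction were higher in bud than in flower. The GH9 endoglucanases, which cut cellulose-like glucans during growth and separation of cells, were represented by 6 unigenes. Of these, 4 were consistently higher in flower and bud (beside 23.6% of all unigenes) and 1 was called (beside 5.22%). Their summed level was 30.7 CPM in flower and 189 CPM in bud, against 0.642 CPM in leaf and 24.1 CPM in root. TR33608|c0_g1_i1 had 3.62 CPM in flower and 13.5 CPM in bud, against 0 in leaf and 0.271 CPM (1 fragment) in root. TR40489|c0_g1_i1 was found only in bud, at 71.3 CPM, with 0 in the other 3 libraries, and so was not in consistent order. Of 4 callose synthases, 2 were consistently higher in flower and bud (beside 23.6% of all unigenes) and 1 was called (beside 5.22%). Their summed level was 11.2 CPM in flower and 18.7 CPM in bud, against 11.6 CPM in leaf and 4.34 CPM in root. In sum, leaf was thus level with flower. The called unigene was the callose synthase 5-like TR47032|c3_g3_i7, whose Arabidopsis relative builds the callose wall of pollen. It had 3.86 CPM in flower and 5.66 CPM in bud, against 1.07 CPM in leaf and 0.542 CPM in root, a gap of 3.60 (1.39 to 11.8).

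The multicopper oxidase homologs of SKU5 and ascorbate oxidase gave 2 calls among 6 unigenes (beside 5.22% of all unigenes), both isoforms of TR44561|c0_g1. SKU5 acts in directional root growth in Arabidopsis. The isoform TR44561|c0_g1_i1 had 11.2 CPM in flower and 18.3 CPM in bud, against 5.35 CPM in leaf and 1.90 CPM in root. A single-tissue pattern was seen in the ascorbate oxidase homologs, since TR45238|c0_g1_i1 had 58.8 CPM in bud only and TR35408|c0_g1_i1 had 12.3 CPM in flower only. The GDSL esterase/lipase TR36753|c2_g1_i1, of a family that acts on cutin and other lipids, had 25.9 CPM in flower and 16.3 CPM in bud and no fragment in leaf or root, so that it was at least 19.99-fold higher in the reproductive tissues. Of 6 actins, which form the other main cytoskeleton, none was consistently higher in flower and bud, and TR32128|c0_g1_i1, with 1.69 CPM in flower and 1.89 CPM in bud, against 6.85 CPM in leaf and 4.61 CPM in root, was called higher in leaf and root with TMM and not with plain CPM.

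**Figure D4:**
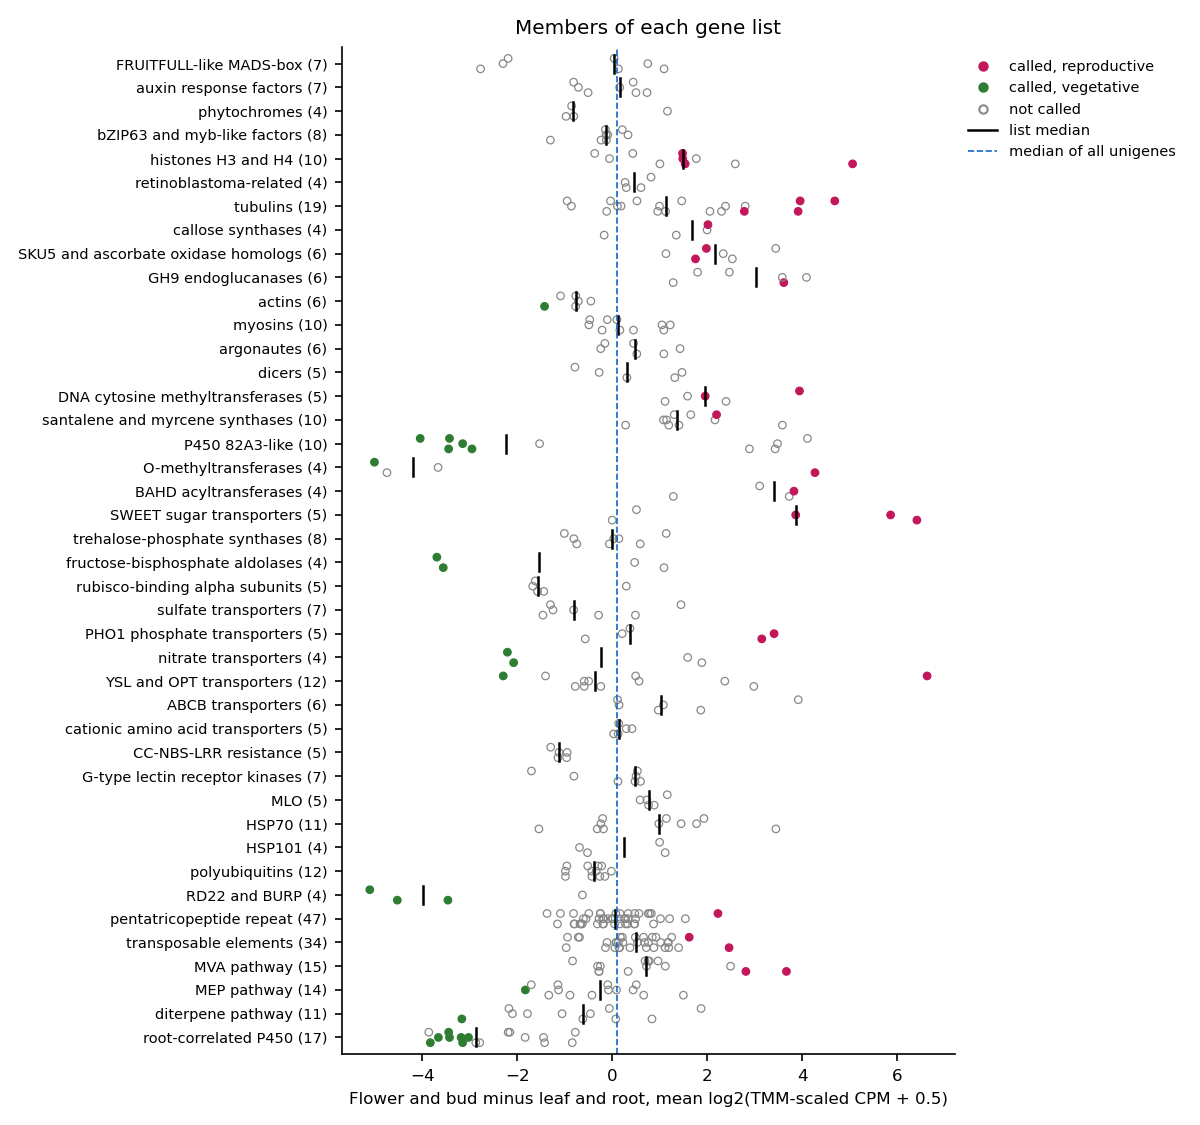
Difference between the pairs (flower and bud minus leaf and root, mean log2(CPM + 0.5), horizontal) for every unigene of the gene lists with at least 4 members, with filled symbols for called unigenes, open grey symbols for the others, a black bar for the list median and a dashed line at the median of all unigenes, 0.10. SWEET transporters, BAHD acyltransferases and GH9 endoglucanases lie to the right, RD22 and BURP proteins and the root-correlated P450s to the left, and polyubiquitins and pentatricopeptide repeat proteins near the dashed line.

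Transporters were called in both directions. SWEET proteins let sugars pass through the plasma membrane and feed nectar, pollen and seeds in other plants. Of 5 SWEET unigenes 3 were called higher in flower and bud (beside 5.22% of all unigenes) and 0 in leaf and root (beside 2.97%). The calls include both TR36419|c0_g1_i1 and its isoform TR36419|c0_g1_i2. The summed level of the 5 was 290 CPM in flower and 34.2 CPM in bud, against 27.0 CPM in leaf and 0 in root. Almost all of the leaf level came from uncalled members, since each called one had at most 0.214 CPM in leaf. The SWEET15 isoform TR36419|c0_g1_i1 had 162 CPM in flower and 10.7 CPM in bud and no fragment in leaf or root, which placed bud at least 13.2-fold above root. The SWEET14-like TR41079|c0_g1_i1 had 4.94 CPM in flower and 13.4 CPM in bud, against 0.214 CPM (1 fragment) in leaf and 0 in root. SWEET15 was therefore mainly a flower transcript and the SWEET14-like unigene mainly a bud transcript. Root had 0 fragments for all 5 SWEET unigenes.

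The largest gap of any described reproductive unigene belonged to TR43473|c0_g1_i2, an oligopeptide transporter of the OPT family, whose members carry peptides or metal chelates. It had 32.2 CPM in flower and 107 CPM in bud, against 0.214 CPM (1 fragment) in leaf and 0 in root, which placed flower at least 39.6-fold above root. Another OPT unigene, TR45054|c0_g1_i1, was called in the other direction with 2.77 CPM in flower and 0.825 CPM in bud, against 7.71 CPM in leaf and 12.2 CPM in root. The remaining 10 of the 12 YSL and OPT unigenes were not called. PHO1-like proteins export phosphate, in Arabidopsis from root cells to the xylem. TR47065|c0_g2_i1 had 14.1 CPM in flower and 19.3 CPM in bud, against 0.642 CPM (3 fragments) in leaf and 2.71 CPM in root, a gap of 5.20 (2.73 to 11.1). Its isoform TR47065|c0_g2_i2 was called as well. Another Trinity gene of the same cluster, TR47065|c0_g1, was detected mainly in flower, with TR47065|c0_g1_i2 at 101 fragments in flower and 2 in bud, against 7 in leaf and 11 in root.

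ABC transporters of the white-brown complex export lipids and cuticle or pollen wall precursors in other plants. TR47002|c0_g1_i1 had 73.8 CPM in flower and 8.01 CPM in bud, against 0 in leaf and 0.542 CPM (2 fragments) in root, and bud was at least 12.5-fold above leaf. TR43892|c0_g1_i1, described as an ABC transporter, was more even, with 22.9 CPM in flower and 20.7 CPM in bud, against 3.00 CPM in leaf and 3.52 CPM in root, a gap of 5.88 (3.35 to 11.3). Purine permease 3 (TR39117|c0_g1_i3) was also even within the pair, with 4.82 CPM in flower and 4.59 CPM in bud, against 0 in leaf and 0.271 CPM (1 fragment) in root. Nitrate transporters were called in the other direction, in 2 of 4 unigenes (beside 2.97% of all unigenes), both isoforms of TR44553|c0_g1. The summed level of the 4 was 77.2 CPM in flower and 30.5 CPM in bud, against 94.9 CPM in leaf and 108 CPM in root. These isoforms held nearly all of the root level and a minor part of the flower level. The uncalled members therefore lay mainly in flower and leaf. The nitrate transporter isoform TR44553|c0_g1_i4 had 9.65 CPM in flower and 6.24 CPM in bud, against 25.3 CPM in leaf and 46.6 CPM in root, a gap of 2.62 (1.96 to 3.52). Both of its called isoforms had gaps under 2 with plain CPM, 1.93 for TR44553|c0_g1_i4 and 1.81 for TR44553|c0_g1_i2.

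Enzymes of phenolic and other specialized metabolism were found in both directions. Phenylalanine ammonia-lyase, the entry step of phenylpropanoid synthesis, was represented by the fragment-length unigene TR48094|c2_g3_i1 with 15.9 CPM in flower and 65.6 CPM in bud, against 3.00 CPM in leaf and 1.90 CPM in root, a gap of 5.31 (3.05 to 9.98). BAHD acyltransferases attach benzoyl, acetyl and similar groups to many plant products. Of their 4 unigenes 3 were consistently higher in flower and bud (beside 23.6% of all unigenes) and 1 was called (beside 5.22%). This was TR40066|c2_g1_i4, described as anthranilate N-benzoyltransferase, with 9.40 CPM in flower and 30.0 CPM in bud, against 0.642 CPM (3 fragments) in leaf and 0.813 CPM (3 fragments) in root, a gap of 11.6 (3.81 to 57.3). Root was the lowest library in sum for this family, with 166 CPM in flower and 132 CPM in bud, against 62.5 CPM in leaf and 6.78 CPM in root.

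The O-methyltransferases split by Trinity gene. TR32830|c0_g3_i1, described as orcinol O-methyltransferase, a scent enzyme in roses, had 108 CPM in flower and 18.5 CPM in bud, against 0.642 CPM (3 fragments) in leaf and 4.34 CPM in root, a gap of 4.27 (2.55 to 7.65). TR40251|c3_g2_i3 carries the same description and had 11.5 CPM in flower and 10.1 CPM in bud, against 55.9 CPM in leaf and 2325 CPM in root, a gap of 4.88 (3.84 to 6.24). Its gap to the vegetative pair was set by leaf, while root was far above all other libraries. The other isoforms of this Trinity gene, TR40251|c3_g2_i2 and TR40251|c3_g2_i5, were not called, with 2.78 and 12.8 CPM in leaf and 2619 and 2187 CPM in root. Among the terpene synthases, the santalene synthase isoform TR45580|c1_g3_i12 had 5.55 CPM in flower and 7.54 CPM in bud, against 1.71 CPM in leaf and 0.542 CPM (2 fragments) in root. It was the 1 call among 10 unigenes (beside 5.22% of all unigenes). Of the 10, which came from 4 Trinity genes, 6 were consistently higher in flower and bud (beside 23.6%). The homolog of 1-aminocyclopropane-1-carboxylate oxidase, TR33448|c0_g1_i3, had 28.0 CPM in flower and 10.3 CPM in bud, against 0.428 CPM (2 fragments) in leaf and 1.36 CPM in root, a gap of 7.56 (3.12 to 23.9). A serine carboxypeptidase-like unigene, TR41300|c3_g1_i4, showed how weak the lower member of a pair could be, with 345 CPM in flower and 1.77 CPM in bud, against 0.214 CPM (1 fragment) in leaf and 0 in root.

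Cytochrome P450 enzymes, which oxidize terpenoids, alkaloids and phenolics, included calls in the vegetative direction. Of 10 unigenes of the 82A3-like group 5 were called higher in leaf and root (beside 2.97% of all unigenes) and 0 in flower and bud (beside 5.22%). The summed level of the group did not follow these calls and was highest in flower, with 673 CPM in flower and 62.3 CPM in bud, against 305 CPM in leaf and 432 CPM in root. TR48176|c3_g1_i3 had 13.9 CPM in flower and 14.0 CPM in bud, against 96.1 CPM in leaf and 129 CPM in root, a gap of 6.86 (5.59 to 8.47). TR41697|c0_g1_i1 had 0.965 CPM in flower and 1.89 CPM in bud, against 11.6 CPM in leaf and 78.1 CPM in root, a gap of 6.13 (3.46 to 11.5). The 3 called isoforms of TR47900|c2_g2 lay between 1.69 and 3.98 CPM in flower and between 2.12 and 5.54 CPM in bud, against 11.6 to 27.8 CPM in leaf and 36.9 to 90.3 CPM in root. The group was not uniform, since the isoforms of TR40144|c3_g1 were abundant in flower, with TR40144|c3_g1_i2 at 235 CPM in flower and 3.77 CPM in bud, against 15.6 CPM in leaf and 0 in root. A second list held the P450 unigenes that the study chose because their expression followed root in these libraries, so its direction is no independent evidence. The lists overlap, and 3 of the 5 called unigenes of the 82A3-like group are in both, so the same limit holds for them. The second list had 17 members, with 7 called in leaf and root (beside 2.97%) and 0 in flower and bud (beside 5.22%). Many of them were high in root alone, as in TR34564|c0_g1_i1 with 0.121 CPM (1 fragment) in flower and 1.18 CPM in bud, against 1.499 CPM in leaf and 109.5 CPM in root, which left its gap at 1.27.

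The isoprenoid pathways were represented by 40 unigenes, of which 2 were called higher in flower and bud (beside 5.22% of all unigenes) and 2 in leaf and root (beside 2.97%), and 8 were in consistent order in each direction (beside 23.6% and 17.7%). With so few members these counts do not set the pathways apart from all unigenes. The MVA pathway had 15 members, of which 7 were consistently higher in flower and bud and 1 in leaf and root, with 2 and 0 called and a median difference of 0.72 on the log2 scale. AACT1 (TR41842|c0_g3_i5), for acetyl-CoA acetyltransferase, which joins 2 acetyl-CoA molecules in the opening step, had 9.04 CPM in flower and 28.7 CPM in bud, against 0.428 CPM (2 fragments) in leaf and 1.36 CPM in root, a gap of 6.67 (2.74 to 21.1). HMGS3 (TR40295|c3_g2_i1), for HMG-CoA synthase of the next step, had 16.5 CPM in flower and 73.5 CPM in bud, against 8.14 CPM in leaf and 2.44 CPM in root. Its gap of 2.03 became 1.99 with DESeq2 size factors and was then under the limit. Mevalonate kinase (MVK) was consistently higher in the reproductive pair with 23.1 CPM in flower and 24.4 CPM in bud, against 13.9 CPM in leaf and 13.8 CPM in root, without being called. The HMG-CoA reductase isoforms, for the rate-limiting step in other organisms, had their highest level in root and their lowest in leaf and so showed neither order, with HMGR3 at 55.6 CPM in flower and 64.2 CPM in bud, against 13.5 CPM in leaf and 162 CPM in root.

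The MEP pathway had 14 members, of which 1 was consistently higher in flower and bud (beside 23.6% of all unigenes) and 6 in leaf and root (beside 17.7%). In the same order, 0 and 1 were called (beside 5.22% and 2.97%). The median difference of this list was -0.26 on the log2 scale with TMM and 0.33 with plain CPM, so its direction depended on the scaling. The called unigene was IPPI1 (TR37870|c0_g1_i1), for the isomerase that interconverts the C5 units, with 95.2 CPM in flower and 49.5 CPM in bud, against 295 CPM in leaf and 203 CPM in root. Its gap was 2.13 (1.93 to 2.36) with TMM and 1.39 with plain CPM. The ISPD isoforms, for the cytidyl transferase of the pathway, were consistently higher in leaf and root, with ISPD2 at 7.96 CPM in flower and 5.07 CPM in bud, against 19.3 CPM in leaf and 14.6 CPM in root. ISPG, for a late reductive step, showed how bud could differ from flower, with 396 CPM in flower and 71.8 CPM in bud, against 517 CPM in leaf and 585 CPM in root.

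Of the 11 diterpene unigenes 0 were consistently higher in flower and bud (beside 23.6% of all unigenes) and 1 in leaf and root (beside 17.7%). The 1 in leaf and root was also the only call (beside 2.97%). This was GGPPS2 (TR35223|c0_g1_i1), for a geranylgeranyl diphosphate synthase, which makes the C20 precursor of diterpenes, with 0.603 CPM in flower and 0.589 CPM in bud, against 10.7 CPM in leaf and 8.13 CPM in root. It rested on 5 fragments in each of flower and bud, and its gap of 13.5 (5.18 to 44.5) was the largest among the vegetative unigenes with a description or a pathway name. The more abundant GGPPS1 had 80.7 CPM in flower and 75.2 CPM in bud, against 72.2 CPM in leaf and 159 CPM in root, and showed neither order. The copalyl diphosphate synthases (CDPS) and kaurene synthase-like unigenes (KS), which close the diterpene rings, had 0 calls, with leaf and root far apart in each of them. CDPS4 had 1.69 CPM in flower and 0.707 CPM in bud, against 1.07 CPM in leaf and 30.4 CPM in root. CDPS2 had 0.603 CPM in flower and 3.06 CPM in bud, against 17.99 CPM in leaf and 0 in root.

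**Figure D5:**
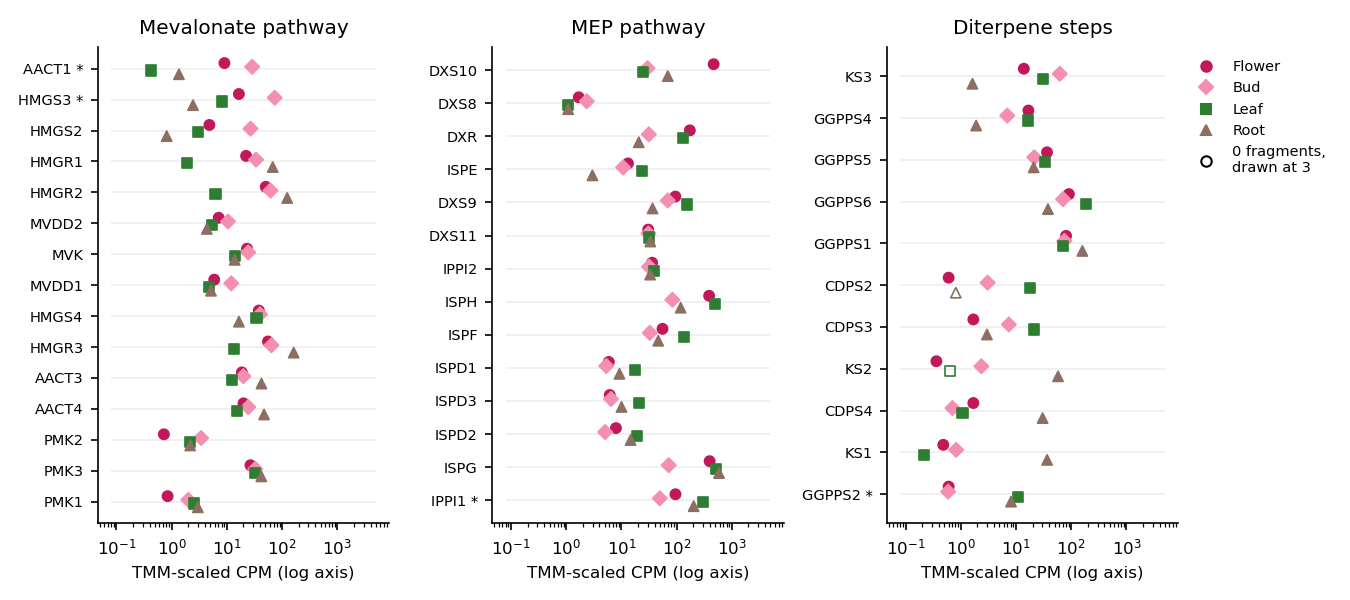
TMM-scaled CPM (log axis) of the MVA, MEP and diterpene unigenes in flower, bud, leaf and root, ordered within each panel by the difference between the pairs, with an asterisk at called unigenes and open symbols for libraries with 0 fragments. AACT1 and HMGS3 have both reproductive symbols to the right, IPPI1 and GGPPS2 have both vegetative symbols to the right, and in most other unigenes the symbols of the pairs are mixed.

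BURP-domain proteins of the RD22 type included vegetative calls with large gaps, and such proteins in other plants respond to drought and abscisic acid. Of 4 unigenes 3 were called higher in leaf and root (beside 2.97% of all unigenes) and 0 in flower and bud (beside 5.22%). The uncalled unigene showed neither order. The summed level of the 4 was 221 CPM in flower and 156 CPM in bud, against 901 CPM in leaf and 2306 CPM in root. Most of the flower and bud level came from the uncalled unigene. The RD22 unigene TR39303|c2_g1_i2 had 10.5 CPM in flower and 8.72 CPM in bud, against 136 CPM in leaf and 876 CPM in root, a gap of 12.96 (10.3 to 16.4). The BURP unigene TR39303|c1_g1_i2 had 22.5 CPM in flower and 26.9 CPM in bud, against 300 CPM in leaf and 1109 CPM in root, a gap of 11.2 (9.72 to 12.9). All 4 share the cluster number TR39303 of the assembly and belong to 2 Trinity genes, so they are not 4 independent genes.

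Fructose-bisphosphate aldolase, which acts in glycolysis and in the Calvin cycle, split by Trinity gene. TR42946|c5_g1_i1 had 43.9 CPM in flower and 16.8 CPM in bud, against 361 CPM in leaf and 355 CPM in root, a gap of 8.09 (7.199 to 9.11), and its isoform TR42946|c5_g1_i4 was also called. Leaf and root held nearly equal levels of it. The aldolases of TR38524 were not in consistent order. A carboxylesterase 8-like unigene, TR37872|c0_g1_i2, of a family of small-molecule esterases, had 9.52 CPM in flower and 0.707 CPM in bud, against 61.5 CPM in leaf and 54.2 CPM in root, a gap of 5.69 (4.37 to 7.48). A type I inositol trisphosphate 5-phosphatase, which ends a calcium-linked lipid signal, was called in 2 isoforms, with TR46773|c1_g2_i2 at 6.03 CPM in flower and 4.24 CPM in bud, against 29.3 CPM in leaf and 19.8 CPM in root.

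Among the stress lists only the RD22 and BURP proteins held calls with TMM. The stress and housekeeping lists are short and were chosen with earlier results known. They therefore do not show how widely differences between the pairs occurred. The class II small heat shock proteins, chaperones that hold unfolded proteins, had 3 unigenes from 2 Trinity genes. All 3 were consistently higher in flower and bud (beside 23.6% of all unigenes) but none was called. TR40495|c1_g1_i2 had 1056 CPM in flower and 370 CPM in bud, against 331 CPM in leaf and 14.4 CPM in root. Root was the library that stood apart there, and the gap between bud and leaf was 1.12 (1.05 to 1.19). Of 11 HSP70 unigenes 0 were called. Of 5 resistance unigenes of the CC-NBS-LRR type, which detect pathogens, 4 were consistently higher in leaf and root (beside 17.7% of all unigenes). None was called (beside 2.97%), and 2 were called with DESeq2 size factors (beside 3.36%). They belong to 3 Trinity genes, so they are not 5 independent genes. Of 12 polyubiquitins 0 were called and their median difference was -0.38 on the log2 scale with TMM and 0.21 with plain CPM. Of 47 pentatricopeptide repeat unigenes, whose products process organelle RNA, 1 was called higher in flower and bud (beside 5.22% of all unigenes) and 0 in leaf and root, with a median difference of 0.05 with TMM and 0.57 with plain CPM.

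The called unigenes differed little in length from the rest. Their median length was 1136 bases for the reproductive and 1178 bases for the vegetative calls, beside 1181 bases for all 29670 unigenes. The median number of fragments was 214 for the reproductive and 261 for the vegetative calls, beside 190 for all. Unigenes that are the only one of their Trinity gene made up 51.1% of the reproductive calls and 44.7% of the vegetative calls, beside 39.7% of all. Where a called Trinity gene had several members, all of them were called in 119 of 393 Trinity genes for the reproductive direction and in 96 of 254 for the vegetative direction. The division of fragments that match several isoforms was not stated, and the split of a level among isoforms of a Trinity gene is therefore uncertain.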

How the data were processed

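Polyadenylated RNA of 4 tissues of A. carmichaelii was sequenced as paired-end, strand-specific libraries, 1 per tissue. The authors trimmed the reads with Trimmomatic, assembled them de novo with Trinity, removed redundant transcripts, aligned the reads back to the unigenes with Bowtie 2 and estimated abundance with RSEM, and the versions are not given in the sources used here. No genome was used. Each deposited expected count gives the fragments that RSEM assigned to a unigene, not normalized, and all values were whole. RSEM scaled the deposited TPM to the same sum in every library. The FPKM of the authors is relative to effective length and mapped fragments. TPM and FPKM served as alternatives only. A joint FPKM table was not used.

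Unigenes over 500 bases with at least 40 summed fragments were kept. TMM factors of 1.18 (flower), 1.28 (bud), 0.865 (leaf) and 0.767 (root) were computed with edgeR 4.0.16 on unigenes with at least 20 summed fragments. Counts were divided by the scaled library size. No tissue was taken as a replicate of another, and no test was run. Order, gap (at least 2) and an exact 95% conditional binomial interval were used, and reads are not independent molecules, so that the interval covers counting error only. Differences on the log2 scale are means of log2(CPM + 0.5) and understate changes of low unigenes. The procedure was tested on simulated data.

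Named unigenes were, in each direction, the 10 with a description or pathway name and the largest gap (1 per Trinity gene), the 2 with the largest gap of any kind, called members of the gene lists, and the pathway unigenes. Others were named after their values were seen. The members and lists were chosen with earlier results of these data known. Lists came from the study's orthologous groups and pathway table, in shortened copies, and no set was tested. Alternatives were plain CPM, DESeq2 1.42.0 size factors, TMM on the members, TPM, FPKM, other minimums, sums over Trinity genes, other gaps and each library left out. Computation used R 4.3.3 and Python 3.11.15, and in Python the packages pandas 2.3.3, scipy 1.17.1, numpy 2.4.6 and, for figures, matplotlib 3.10.9.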

Additional observations from a re-analysis of the deposited data

Results flagged for a closer look

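Unigenes of at most 500 bases were outside the comparison, and a signal of the same kind was present among them. Of 4468 such unigenes with at least 40 fragments, 313 were called higher in flower and bud (7.01%) and 220 in leaf and root (4.92%), by the same limits. The largest gap among them belonged to TR37485|c2_g2_i1 (313 bases), with 247 CPM in flower and 172 CPM in bud and no fragment in leaf or root. In the other direction it belonged to TR35194|c2_g1_i5 (427 bases), with 0 in flower and 0.589 CPM in bud, against 61.2 CPM in leaf and 44.2 CPM in root.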

How the results depend on the processing

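More unigenes were called in flower and bud than in leaf and root in every setting except without root, and the size of this excess depended on the scaling. Plain CPM gave 12792 unigenes consistently higher in flower and bud and 1953 in leaf and root, with 3345 and 426 calls. Deposited FPKM gave 12793 and 1945, with 4208 and 503 calls, and deposited TPM gave 3027 calls in flower and bud and 3280 consistent unigenes in leaf and root. Reproductive calls made up 63.8% of all calls with TMM, 88.7% with plain CPM, 89.3% with FPKM, 81.1% with TPM and 58.4% with DESeq2 size factors. FPKM and TPM were used with no interval, and no floor was set for a library at 0. With a minimum of 100 fragments, 4294 unigenes were consistently higher in flower and bud and 4103 in leaf and root. With no minimum these numbers were 12459 and 6727. The reproductive share of the consistent unigenes was thus 51.1% with a minimum of 100 and 64.9% with no minimum, beside 57.2% in the main setting. The excess in consistent order therefore also depended on the fragment minimum. A gap of at least 4 left 656 and 311 calls, and a gap of at least 1.5 gave 1499 calls in leaf and root. With each library left out in turn, the consistent unigenes ranged from 9972 to 14022 in flower and bud and from 7594 to 11136 in leaf and root, and the calls from 3095 to 5084 and from 1330 to 4184. All 1550 and 880 calls were kept each time, since the order then rests on 3 of the 4 libraries. With leaf or root left out, reproductive calls made up 54.9% and 47.95% of all calls. Of 60 unigenes whose gap was followed, 6 were not called with plain CPM, 3 with DESeq2 size factors and 0 with TMM on the members, and none changed direction. Under these 3 scalings the number of calls in a list moved by more than 1.5 times in 15, 4 and 0 of 92 cases. Sums over Trinity genes gave 1319 and 680 calls. No paired analysis was possible because each tissue has 1 library and the labels share a single replicate number. A gap of at least 2 whose interval reached 1 was found for 449 unigenes higher in flower and bud and 103 higher in leaf and root.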
